A study of Mus musculus with 9 samples.

Results

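The 10 genes described here are the core genes of the endothelial to mesenchymal transition: the smooth muscle contractile genes Acta2, Tagln, Cnn1 and Myl9, the intermediate filament gene Vim, and the transcription factor genes Snai1, Snai2, Twist1, Zeb1 and Zeb2. They were taken by symbol from a table of 52636 Ensembl genes, and all 10 were found. The libraries were made from RNA of sorted liver endothelial cells of mice, which were live, carried CD31 and no CD45, and were marked by an antibody to VE-cadherin injected into the living animal. The design holds 1 comparison, between 5 libraries whose genotype label is Erg and Fli1 double knockout and 4 control libraries labelled wild type, all from mice given tamoxifen to induce deletion and taken 7 days later. The labels give no strain, sex, age of the mice or Cre driver, and do not say whether each library came from its own mouse. Erg and Fli1 encode transcription factors of the ETS family that act in endothelium and in blood lineages.

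In the endothelial to mesenchymal transition, endothelial cells lose junction and receptor genes of their own lineage and take up contractile and matrix genes of mesenchymal cells. TGF-beta family signals induce it through SMAD proteins, and the zinc finger factors Snai1, Snai2, Zeb1 and Zeb2 and the basic helix-loop-helix factor Twist1 carry it at the level of transcription. Transcription of the contractile genes depends on serum response factor (SRF), which binds a sequence called the CArG box, and on its myocardin-family partners. Vim encodes vimentin, a filament protein that normal endothelium already makes.

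The sorted cells of both groups gave almost no counts of Acta2, Tagln and Cnn1, few of Myl9, and many of Vim, Zeb1 and Zeb2. Tagln shares most of its exonic bases with an antisense gene, so its counts do not settle its level. Between the groups, Twist1, Vim and Myl9 rose in the knockout-labelled libraries by 2.05-fold, 1.51-fold and 5.42-fold, and Snai2 fell by a factor of 3.04. Snai1, Zeb1, Zeb2 and Tagln did not pass the test, and Acta2 and Cnn1 had too few reads to enter it. Of the 8 genes tested, 3 were higher and 1 was lower at an adjusted p under 0.05 (edgeR's quasi-likelihood test, Benjamini-Hochberg adjustment over all 14583 genes tested), where 14.5% of all genes tested were higher and 14.8% lower, 29.3% in either direction. The median log2 fold change of the 8 was 0.45, beside 0.01 for all genes tested. The Snai2 call held in each of 18 alternative fits, while those of Twist1, Vim and Myl9 ended when single libraries were left out. Without replicates 2 and 3 of the knockout-labelled libraries, which were the lowest libraries on the second principal component, 2 genes were higher, Twist1 and Snai1. Vim and Myl9 were then not called (edgeR adjusted p = 0.109 and 0.0881). The number of higher genes lay between 0 and 3 when any 1 library was left out.

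The promoter sequences of 3 genes are shown, for the contractile gene that passed the test and for the pair of transition factor genes whose levels followed the same order of libraries. The sequences are the bases before the RefSeq start of each gene on build GRCm38.p6, plus strand, and 7 of the 10 genes had an entry, all but Tagln, Snai2 and Zeb1. The Myl9 sequence stops where the GENCODE gene begins, at 156775420, and leaves out the bases from there to the RefSeq start at 156775464, from which its distances are counted. Capitals mark the CArG box in Myl9 (chr2:156775214-156775419), the E-box CACCTG in Snai1 (chr2:167537945-167538194), and GGAA, the core that ETS factors bind, on either strand in Twist1 (chr12:33957421-33957670).
Myl9: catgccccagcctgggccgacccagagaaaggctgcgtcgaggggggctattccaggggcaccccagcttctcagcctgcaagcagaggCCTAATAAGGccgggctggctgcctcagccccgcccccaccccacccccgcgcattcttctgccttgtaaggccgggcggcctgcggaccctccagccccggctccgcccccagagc
Snai1: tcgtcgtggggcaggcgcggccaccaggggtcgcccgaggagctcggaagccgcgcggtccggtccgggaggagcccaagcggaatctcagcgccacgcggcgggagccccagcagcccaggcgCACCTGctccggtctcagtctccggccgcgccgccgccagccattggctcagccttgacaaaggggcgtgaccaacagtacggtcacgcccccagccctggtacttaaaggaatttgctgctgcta
Twist1: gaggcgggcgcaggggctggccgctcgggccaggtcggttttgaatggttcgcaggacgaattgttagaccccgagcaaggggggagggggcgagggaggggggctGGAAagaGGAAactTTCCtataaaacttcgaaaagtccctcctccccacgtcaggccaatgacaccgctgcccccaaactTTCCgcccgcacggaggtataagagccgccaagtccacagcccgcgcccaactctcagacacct

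Each of the 250-base windows before a RefSeq start was searched on both strands, and the matches shown do not overlap each other. The search covered CACCTG, the E-box that the Snail and ZEB proteins bind, and GGAA. The CArG box was sought only in the exact form CCWWWWWWGG (W is A or T), so boxes with a mismatch were not counted. The CArG box of Myl9 lay 161 bases before the start and was the only exact match among the 7 genes, where 1.47% of all 32851 promoters hold one. The E-box of Snai1 lay 126 bases before the start, and 17.2% of all promoters hold this sequence. Twist1 held 4 copies of GGAA, but 93.4% of promoters hold at least 1. The sequence was not particular to Twist1: Vim held 6 copies, each Zeb2 window 3 to 6, Snai1, Acta2 and Cnn1 3 each, and Myl9 1. A match is a description of the letters and does not show a bound site.

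The libraries held between 26791371 and 36401682 counts in the knockout-labelled group and between 31613059 and 34663989 in the control group. Levels are given in CPM, in which counts are divided by TMM-scaled library totals, and, where genes are compared with each other, in TPM, which also divides by exonic length. At this depth 1 count was worth between 0.0275 and 0.0373 CPM in the knockout-labelled libraries and between 0.0288 and 0.0316 CPM in the controls, before scaling. Erg, 1 of the targeted genes, averaged 142.8 ± 10.9 CPM in the knockout-labelled libraries and 311.4 ± 17.8 CPM in the controls (SD), and fell without overlap between the groups (log2 fold change -1.12 ± 0.08, SE, edgeR adjusted p = 2.62e-05). Fli1 averaged 147.3 ± 22.5 and 100.1 ± 8.01 CPM in the same order and was higher (log2 0.56 ± 0.12, SE, edgeR adjusted p = 0.00636), against what its label says of the gene. The 5 libraries are therefore called knockout-labelled throughout, and every direction is relative to that label. The deleted exons are not named in the labels, and counts summed over a whole gene keep reads from any exons that remain. Cdh5 and Pecam1, the genes of the VE-cadherin and CD31 used in the sort, were abundant and did not pass the test, with Cdh5 at 2156 ± 193 CPM in the knockout-labelled libraries and 2189 ± 113 CPM in the controls and Pecam1 at 1407 ± 164 and 1481 ± 97.8 CPM in the same order. On the second principal component of all genes tested, which held 17.7% of the variance, knockout-labelled replicates 2 and 3 lay at -53.2 and -26.8 and the other libraries between -20.4 and 46.2, so that replicate 3 lay nearer to a control than to replicate 2.

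**Figure D1:**
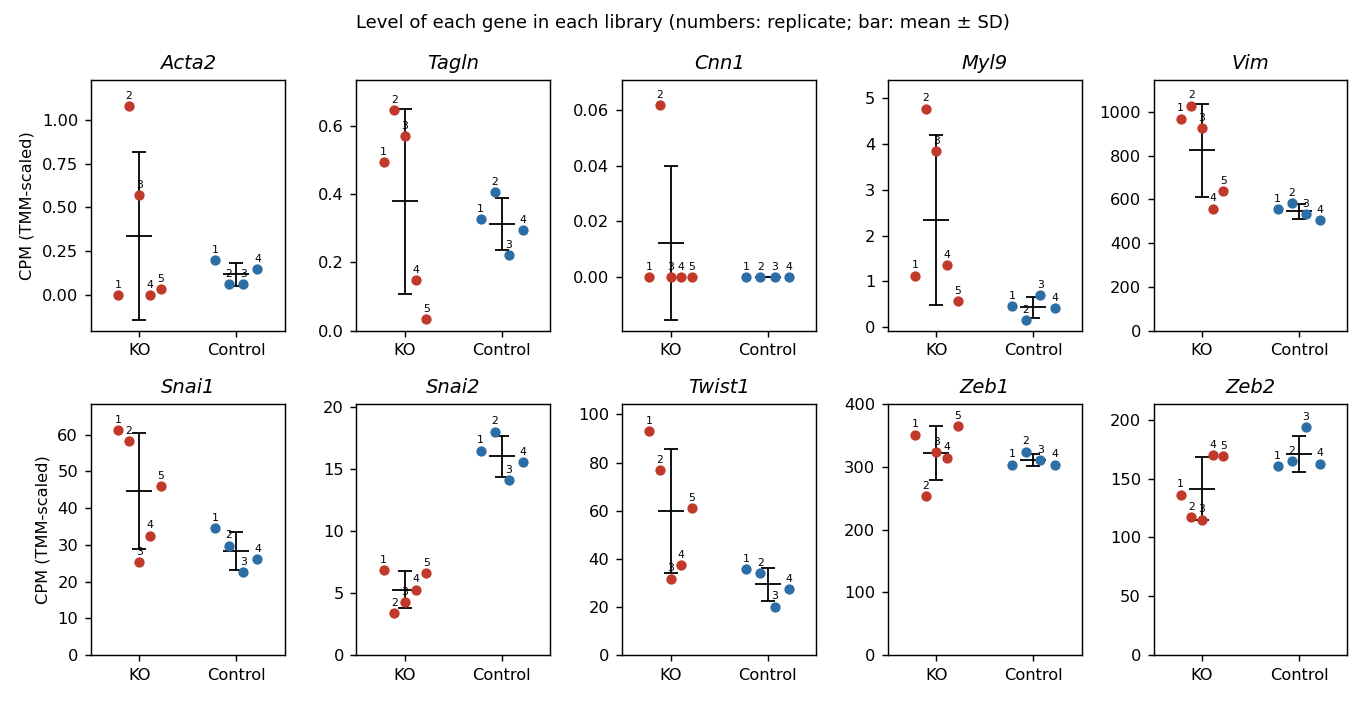
Level of each of the 10 genes in CPM (linear axes, a scale for each gene) in the 5 knockout-labelled (KO, red) and 4 control (blue) libraries, with replicate numbers and the mean ± SD. Snai2 separates the groups without overlap, Acta2 and Cnn1 lie near 0, and Acta2 and Myl9 stand highest in knockout-labelled replicates 2 and 3.

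Acta2 (ENSMUSG00000035783, GRCm38 chromosome 19, 34241090 to 34255590, minus strand) encodes smooth muscle alpha-actin, the protein most used to score the transition. It had 0, 35, 22, 0 and 1 counts in knockout-labelled replicates 1 to 5, against 6, 2, 2 and 5 counts in control replicates 1 to 4. Replicates 2 and 3 of the knockout-labelled libraries stood above every control and the other 3 below every control, so the groups overlapped. The means were 0.337 ± 0.481 and 0.117 ± 0.0661 CPM (SD), which did not pass an exact two-sided permutation test of the mean CPM over all 126 assignments of the labels (p = 0.556). In all, the gene had 58 counts of 153088137 in the knockout-labelled group and 15 of 131463411 in the controls. Without a count filter its log2 fold change was 1.52 ± 1.24 (SE, edgeR adjusted p = 0.466).

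Cnn1 (ENSMUSG00000001349, chromosome 9, 22099216 to 22109630, plus strand) encodes calponin 1, an actin-binding protein of differentiated smooth muscle. It had 2 counts in all, both in knockout-labelled replicate 2, and 0 in the other 8 libraries. A count of 0 over the control group allows up to 0.0228 CPM (3 counts of the group total, counting error only), so no difference was detectable at this depth. No fold is given for it.

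Tagln (ENSMUSG00000032085, chromosome 9, 45929619 to 45936058, minus strand) encodes transgelin, also called SM22-alpha, an early marker of smooth muscle. It had 14, 21, 22, 4 and 1 counts in the knockout-labelled libraries, against 10, 13, 7 and 10 in the controls. The knockout-labelled libraries lay on both sides of the controls, 3 above the highest and 2 below the lowest. The log2 fold change was 0.30 ± 0.62 (SE, edgeR adjusted p = 0.755), and its sign turned with limma-voom (-0.17) and without knockout-labelled replicates 2 and 3 (-0.47). An antisense gene, Gm48529, covers 62.4% of the exonic bases of Tagln and had between 168 and 199 counts in each knockout-labelled library and between 204 and 227 in each control. The strand setting of the counting is not given in the sources used here, so reads of this pair cannot be told apart.

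Myl9 (ENSMUSG00000067818, chromosome 2, 156775420 to 156781658, plus strand) encodes a regulatory light chain of myosin that is abundant in smooth muscle. It lay at 1.13, 4.78, 3.84, 1.36 and 0.567 CPM in knockout-labelled replicates 1 to 5, against 0.458, 0.156, 0.693 and 0.413 CPM in the controls. Replicates 2 and 3 were the highest, replicates 1 and 4 were above every control, and replicate 5 lay within the control range. The gene rose 5.42-fold (log2 2.44 ± 0.69, SE, edgeR adjusted p = 0.0243). Without knockout-labelled replicates 2 and 3 the log2 fold change was 1.24 and the call ended (edgeR adjusted p = 0.0881). The call also ended without control replicate 1, 2 or 4 (edgeR adjusted p between 0.0604 and 0.0682) and with limma-voom (0.0682), and over all alternatives the adjusted p lay between 9.77e-04 and 0.0881. The gene stood low, with 18.5% of genes tested below its mean over all libraries.

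**Figure D2:**
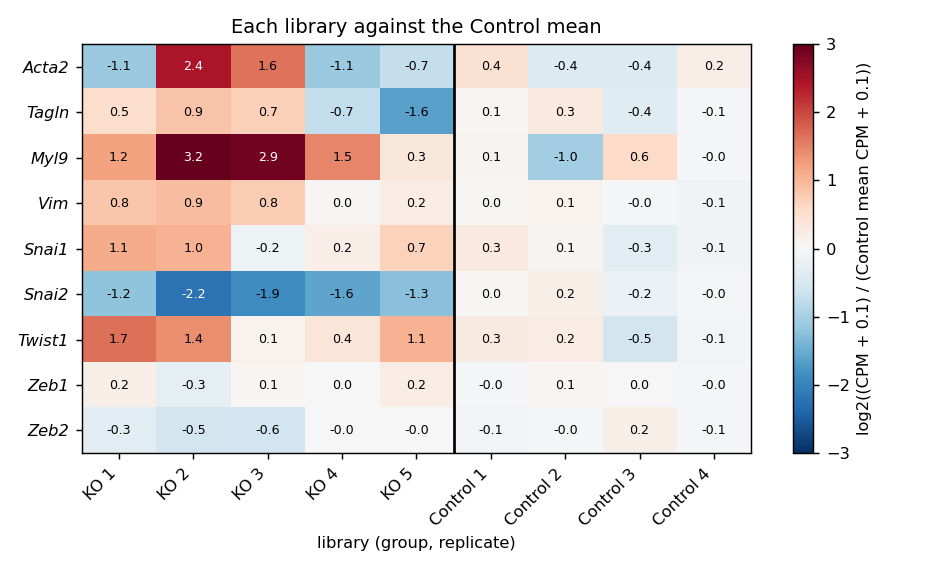
Each library against the control mean for the genes other than Cnn1, as log2((CPM + 0.1) / (control mean CPM + 0.1)), with knockout-labelled replicates 1 to 5 left of the line and control replicates 1 to 4 right of it. Acta2 and Myl9 are highest in knockout-labelled replicates 2 and 3, Snai1 and Twist1 in replicates 1, 2 and 5, and Snai2 is low in all 5.

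Markers of cells that normally express the contractile genes were read in the same libraries. Of 12 markers of smooth muscle cells and pericytes, 5 could be tested and 0 passed in edgeR, DESeq2 or limma-voom, with 1 at an unadjusted edgeR p under 0.05. Their summed level was between 319 and 1326 CPM in the knockout-labelled libraries and between 143 and 548 CPM in the controls, most of it from the potassium channel subunit gene Abcc9. Without Abcc9 and Kcnj8, a choice made after their values were seen, the sum of the other 10 was 14.1 and 8.36 CPM in knockout-labelled replicates 2 and 3, between 1.84 and 1.97 CPM in replicates 1, 4 and 5, and between 2.62 and 6.29 CPM in the controls. The smooth muscle myosin gene Myh11 had up to 64 counts in a knockout-labelled library and 23 in a control. Myocd, Actg2 and Higd1b were at 0 in every control, and in 4, 4 and 3 of the knockout-labelled libraries. Hepatic stellate cells, the mesenchymal cells beside the sinusoid, were read by 12 markers. These summed to 22.04 to 52.1 CPM in the knockout-labelled libraries and 19.6 to 37.9 CPM in the controls. Of the 8 tested, 1 was higher, Colec11, where 14.5% of all genes were, and the median log2 fold change was -0.11. The Colec11 call (edgeR adjusted p = 0.0147) ended with limma-voom (adjusted p = 0.0869) and in a fit blocked by replicate number (edgeR adjusted p = 0.0618). The 2 highest stellate sums were those of knockout-labelled replicates 2 and 3, at 52.1 and 41.2 CPM, and Pdgfrb is in this list and in the smooth muscle and pericyte list. The high sums were not particular to these lists. Replicate 2 also had the highest sums of macrophage markers (485 CPM) and of cholangiocyte markers (17.0 CPM), and the lowest of endothelial markers (9218 CPM). Replicate 3 had 84.2, 7.11 and 9802 CPM in the same order. Mesothelial markers summed to 35.9 CPM in knockout-labelled replicate 2, between 4.05 and 8.96 CPM in the other 4, and between 10.3 and 25.1 CPM in the controls. The part of these cells in the levels of Acta2 and Myl9 was not tested, and in bulk RNA fewer cells of a type cannot be told apart from less RNA per cell.

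Relatives of the contractile genes that most cells express were abundant in both groups. Tagln2, the transgelin of non-muscle cells, averaged 1539 ± 198 TPM in the knockout-labelled libraries and 1036 ± 114 TPM in the controls. Tagln, as counted beside its antisense gene, stood at 0.796 ± 0.569 and 0.620 ± 0.151 TPM in the same order. The calponin genes Cnn2 and Cnn3 stood at 284 ± 27.99 and 283 ± 31.0 TPM in the knockout-labelled libraries, against 334 ± 38.3 and 447 ± 13.6 TPM in the controls. The non-muscle myosin light chain genes Myl12a and Myl12b averaged 273.7 and 240.2 TPM in the knockout-labelled libraries and 249.7 and 235.8 TPM in the controls, where Myl9 reached 8.40 ± 6.62 and 1.46 ± 0.746 TPM. In CPM, Tagln2 rose 1.40-fold (edgeR adjusted p = 0.0179, or 0.0586 without control replicate 3 and 0.0534 without control replicate 4). Cnn3 fell 1.67-fold (edgeR adjusted p = 0.000558), and Myl12a and Myl12b did not pass. Cnn2 was 1.25-fold lower (edgeR adjusted p = 0.0362), a call that ended in 11 alternatives at adjusted p between 0.0532 and 0.102.

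**Figure D3:**
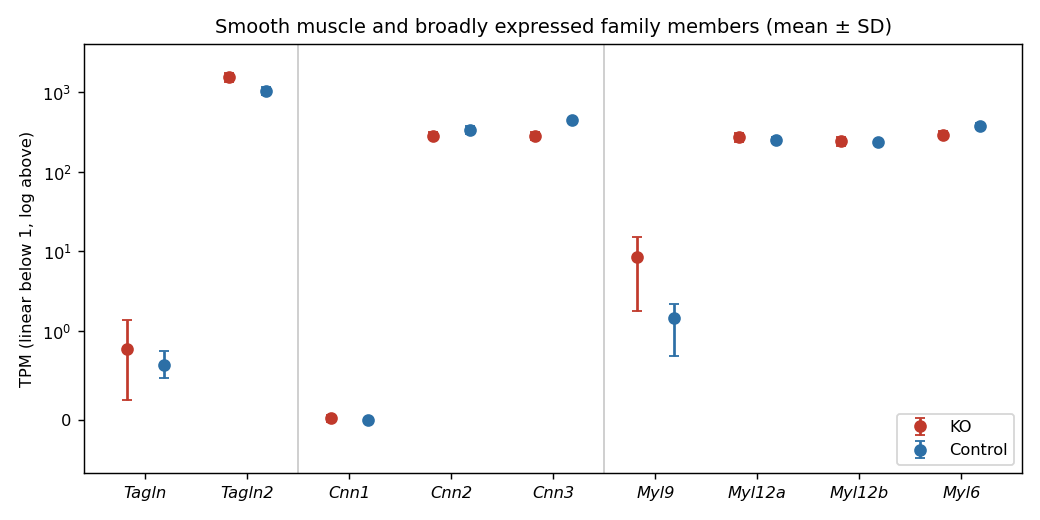
Level in TPM (mean ± SD, linear below 1 and log above) of the smooth muscle genes Tagln, Cnn1 and Myl9 beside relatives expressed in most cells, with knockout-labelled libraries (KO, red, n = 5) left of controls (blue, n = 4). As counted, the muscle genes stand at or below 8.40 TPM on average and their relatives above 200 TPM in both groups. The level of Tagln is limited by its antisense gene.

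Vim (ENSMUSG00000026728, chromosome 2, 13573927 to 13582826, plus strand), the filament gene, was the most abundant of the 10 genes, with 98.9% of genes tested below its mean level. It lay at 970, 1029, 928, 558 and 640 CPM in the knockout-labelled libraries, against 556, 583, 533 and 507 CPM in the controls. Replicates 1, 2, 3 and 5 were above every control, and replicate 4 lay within the control range. Vim rose 1.51-fold (log2 0.60 ± 0.19, SE, edgeR adjusted p = 0.0371). The call ended without knockout-labelled replicate 1, 2 or 3 and without any 1 control, at edgeR adjusted p between 0.0625 and 0.0883, and without replicates 2 and 3 together (log2 0.42, 0.109). Over all alternatives the adjusted p lay between 0.00677 and 0.109. The spread was 25.7% of the mean in the knockout-labelled libraries and 5.95% in the controls.

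Other cells of the liver also express Vim. Macrophage markers summed to between 66.0 and 485 CPM in the knockout-labelled libraries and between 75.6 and 357 CPM in the controls, with 0 of 9 past the threshold in edgeR, DESeq2 or limma-voom and 0 at an unadjusted edgeR p under 0.05. Of 6 platelet and leukocyte markers 5 were higher, where 14.5% of all genes were, with sums of 32.5 to 56.3 CPM against 8.92 to 13.4 CPM, and the leukocyte gene Ptprc, which encodes the CD45 of the sort, was not (7.73 ± 3.20 and 5.80 ± 0.676 CPM). Pf4, another of these markers, averaged 24.7 ± 3.18 CPM in the knockout-labelled libraries and 2.76 ± 0.642 CPM in the controls (edgeR adjusted p = 8.96e-06). Gp9, S100a8 and S100a9 were higher as well (edgeR adjusted p = 0.00446, 0.01225 and 0.0188), and the S100a9 call ended in 2 alternatives. The call of Ppbp, a platelet chemokine gene, ended in 9 alternatives (edgeR adjusted p up to 0.187). Its rise was 1.76-fold in place of 3.55-fold without knockout-labelled replicates 2 and 3, and limma-voom called 4 of the 6 markers. Of 9 fibroblast markers, 3 were higher and 1 lower among 4 tested (all genes 14.5% and 14.8%), with sums of 78.0 to 176 CPM against 15.9 to 26.4 CPM, most of it from Pi16 (111 ± 34.2 and 6.23 ± 3.54 CPM). Pdgfra was higher, at 1.93 ± 0.547 CPM in the knockout-labelled libraries and 0.381 ± 0.251 CPM in the controls (edgeR adjusted p = 0.00262). Eln was the lower one, at 3.50 ± 2.97 and 12.8 ± 3.07 CPM in the same order (edgeR adjusted p = 0.0159). The call of Thy1 ended in 3 alternatives, with the highest adjusted p (0.0780) in limma-voom. Mfap4 was at 0 in all 9 libraries, and the collagen genes Col1a1 (0.589 ± 0.614 and 1.18 ± 0.872 CPM) and Col3a1 (2.12 ± 1.99 and 2.29 ± 1.52 CPM) were not past the threshold. The part of these cells in the level of Vim was not tested.

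Among the transition factors, Snai2 passed the test and its close relative Snai1 did not. Snai2 (ENSMUSG00000022676, chromosome 16, 14705852 to 14709385, plus strand) encodes Slug, a repressor that binds E-boxes. It lay at 6.84, 3.39, 4.28, 5.26 and 6.61 CPM in the knockout-labelled libraries, against 16.5, 18.01, 14.1 and 15.5 CPM in the controls. All 5 knockout-labelled libraries were below the lowest control, and Snai2 was the only 1 of the 8 genes tested whose groups did not overlap, where 27% of all genes tested did not overlap. Its log2 fold change was -1.60 ± 0.20 (SE, edgeR adjusted p = 0.000454). It lay between -1.73 and -1.35 over 18 alternatives, with adjusted p between 4.76e-12 and 0.00732.

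Snai1 (ENSMUSG00000042821, chromosome 2, 167538195 to 167542814, plus strand) encodes Snail, the founding member of that repressor family. It lay at 61.4, 58.3, 25.3, 32.5 and 45.9 CPM in the knockout-labelled libraries, against 34.6, 29.8, 22.5 and 26.1 CPM in the controls. Replicates 1, 2 and 5 were above every control, and replicates 3 and 4 lay within the control range. The log2 fold change was 0.66 ± 0.26 (SE, edgeR adjusted p = 0.0860), which did not pass. It passed with DESeq2 (adjusted p = 0.0384), without knockout-labelled replicate 3 (log2 0.81, edgeR adjusted p = 0.0207) and without replicates 2 and 3 together (0.73, 0.0379), and over all alternatives the adjusted p lay between 0.0207 and 0.201. Per length, Snai1 stood above Snai2 in every library, by 7.36 to 21.4 times in the knockout-labelled libraries and 1.997 to 2.61 times in the controls.

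Twist1 (ENSMUSG00000035799, chromosome 12, 33957671 to 33959829, plus strand) encodes a factor of mesodermal and mesenchymal cells that dimerises with E proteins. It lay at 93.0, 76.7, 31.7, 37.5 and 60.9 CPM in the knockout-labelled libraries, against 35.6, 33.9, 20.1 and 27.5 CPM in the controls. Replicates 1, 2, 4 and 5 were above every control, replicate 4 by little, and replicate 3 lay within the control range. Twist1 rose 2.05-fold (log2 1.03 ± 0.32, SE, edgeR adjusted p = 0.0385). The call ended without knockout-labelled replicate 1, 2 or 5 and without any 1 control, at edgeR adjusted p between 0.0601 and 0.104, as well as with limma-voom (0.0583) and with no count filter (edgeR adjusted p = 0.117). It held without knockout-labelled replicates 2 and 3 (log2 1.13, edgeR adjusted p = 0.0288). The knockout-labelled libraries fell in the same order for Twist1 and for Snai1, with replicate 1 highest, then 2, 5, 4 and 3. For Myl9 the order was replicate 2, 3, 4, 1 and 5, and for Zeb1 it was 5, 1, 3, 4 and 2.

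Zeb1 (ENSMUSG00000024238, chromosome 18, 5591860 to 5775467, plus strand) and Zeb2 (ENSMUSG00000026872, chromosome 2, 44983632 to 45117395, minus strand) encode large repressors with clusters of zinc fingers at both ends. Zeb1 lay at 352, 254, 325, 315 and 365 CPM in the knockout-labelled libraries, against 304, 325, 312 and 304 CPM in the controls. The knockout-labelled libraries lay on both sides of the controls, and the log2 fold change was 0.05 ± 0.11 (SE, edgeR adjusted p = 0.762). Zeb2 lay at 136, 117, 115, 170 and 169 CPM in the knockout-labelled libraries, against 161, 165, 194 and 163 CPM in the controls. Replicates 1, 2 and 3 were below every control and replicates 4 and 5 within the control range, and the fitted log2 difference was -0.27 ± 0.14 (SE, edgeR adjusted p = 0.169). The antisense gene Zeb2os shares 3.27% of the exonic bases of Zeb2 and averaged 1.21 ± 0.202 CPM in the knockout-labelled libraries and 2.05 ± 0.540 CPM in the controls (log2 -0.75 ± 0.24, SE, edgeR adjusted p = 0.0425). The antisense gene Gm10125 shares 1.93% of those of Zeb1 and did not pass (edgeR adjusted p = 0.533).

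Compared per length, the order of the 5 factors by mean level was not the same in the groups. The length is the union of annotated exons, 19942 bases over 29 transcripts for Zeb2 and 10266 over 12 for Zeb1. Snai1, Snai2 and Twist1 have 1 transcript each, of 1621, 2021 and 1628 bases. A union longer than the transcripts made lowers the TPM, so the places of Zeb1 and Zeb2 in the order depend on this choice of length. In the knockout-labelled libraries Twist1 was highest at 153 ± 63.6 TPM, then Zeb1 at 132 ± 20.1, Snai1 at 115 ± 38.1, Zeb2 at 29.8 ± 5.77 and Snai2 at 11.0 ± 3.11 TPM (SD, n = 5). The ranges of Twist1, Zeb1 and Snai1 over libraries overlapped one another, while those of Zeb2 (23.6 to 36.2 TPM) and Snai2 (6.74 to 14.02 TPM) did not. In the controls Zeb1 was highest at 120 ± 4.05 TPM, then Twist1 at 71.1 ± 16.5, Snai1 at 68.8 ± 11.8, Zeb2 at 33.8 ± 3.08 and Snai2 at 31.3 ± 3.15 TPM (SD, n = 4). There the ranges of Twist1 and Snai1 overlapped, as did those of Zeb2 and Snai2.

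**Figure D4:**
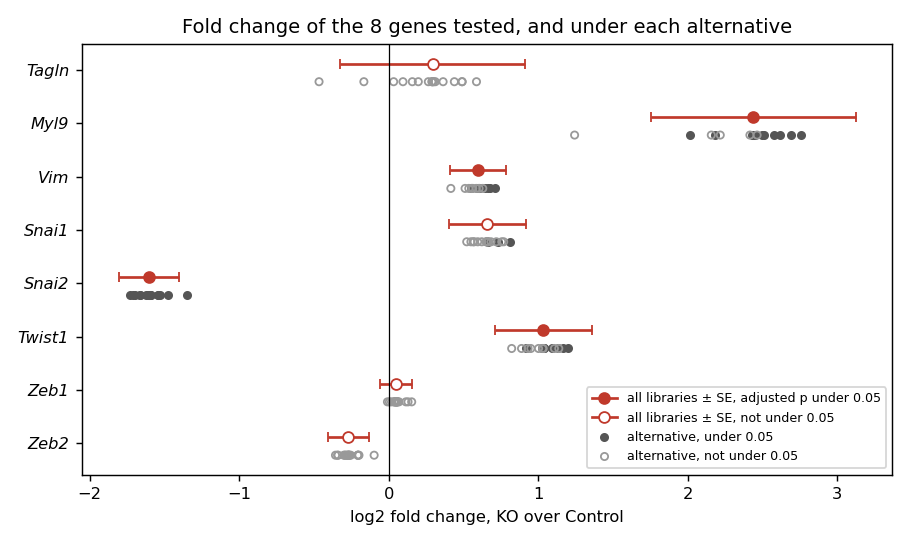
Log2 fold change, knockout-labelled (KO) over control, of the 8 genes tested (red, ± SE, filled where the edgeR adjusted p is under 0.05), with the value of each alternative fit below it (filled grey where under 0.05, open where not). Only the Snai2 points, between -1.73 and -1.35, are all filled, and those of Tagln and Zeb1 lie on both sides of 0.

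The wider programme was read from 8 lists of 123 further genes, chosen with earlier results of these data known, of which 97 could be tested. Over these lists 16 genes were higher and 24 lower, to be read, like the counts of each list, against 14.5% higher and 14.8% lower among all genes tested. Of 17 other transition factor genes, 9 could be tested and 3 were lower, with a median log2 fold change of -0.45. The genes tested include Id1, Id2, Id3 and Id4 (log2 -0.76, -0.62, -0.41 and -0.69), which encode inhibitors of E proteins and of which only Id2 passed. The median is therefore not one of factors that drive the transition alone. Foxc2, a forkhead factor gene, did not pass (log2 2.51 ± 0.86, SE, edgeR adjusted p = 0.0527). It averaged 3.11 ± 2.88 CPM in the knockout-labelled libraries, against 0.543 ± 0.412 CPM in the controls. Tcf3, which encodes an E protein partner of Twist1, fell to 89.2 ± 8.28 CPM in the knockout-labelled libraries, against 122 ± 6.37 CPM in the controls (edgeR adjusted p = 0.00274). The forkhead factor gene Foxc1 (log2 -0.91) and Id2 (-0.62), which encodes an inhibitor of such partners, were lower at edgeR adjusted p = 0.0306 and 0.0396, and both calls ended when single libraries were left out, at up to 0.0751 and 0.0873. Snai3, Twist2, Prrx1 and Gsc, relatives or partners of the core factors, had means of at most 0.0393 CPM in either group.

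Of 23 other contractile and actin-binding genes, 18 could be tested, with 5 higher and 4 lower (all genes 14.5% and 14.8%) and a median log2 fold change of 0.14. The myosin light chain kinase gene Mylk rose to 186 ± 98.5 CPM in the knockout-labelled libraries, against 24.6 ± 2.49 CPM in the controls, 7.57-fold (log2 2.92 ± 0.40, SE, edgeR adjusted p = 0.000725). The actin cross-linker gene Flna rose to 732 ± 174 CPM, against 331 ± 45.2 CPM in the controls (edgeR adjusted p = 0.00169), and Csrp1, which encodes a LIM protein of the actin cytoskeleton, fell to 107 ± 11.8 CPM, against 204 ± 21.5 CPM (0.000227). The muscle actin genes Acta1, Actc1 and Actg2 averaged at most 0.0397 CPM in either group. Among 11 genes of the SRF, myocardin-related, YAP and TEAD factors, 2 were higher and 2 lower of 10 tested, where 29.3% of all genes were called (median log2 fold change -0.06). Srf itself averaged 45.9 ± 4.06 and 45.7 ± 1.96 CPM (edgeR adjusted p = 0.967). Tead1 (log2 0.65, edgeR adjusted p = 0.00689) and Tead3 (3.48, 0.00357) rose, Tead2 (-1.43, 0.00288) and Mrtfb (-0.41, 0.0303) fell, and the Mrtfb call ended when single libraries were left out (up to 0.0867). Tead3 stood at 1.51 ± 0.917 and 0.133 ± 0.0826 CPM, and its rise was 6.82-fold in place of 11.1-fold without knockout-labelled replicates 2 and 3.

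Of 10 further filament genes and their linkers, 8 could be tested, with 1 higher and 1 lower and a median log2 fold change of -1.23e-04. Lmna, which encodes lamins A and C of the nuclear envelope, rose to 43.7 ± 15.8 CPM in the knockout-labelled libraries, against 16.4 ± 2.40 CPM in the controls (edgeR adjusted p = 0.00269). Lmnb1, which encodes lamin B1, was at 23.2 ± 5.35 and 37.5 ± 8.78 CPM (0.0278), and its call ended when single libraries were left out (edgeR adjusted p up to 0.0797). Of 20 mesenchymal matrix and adhesion genes, 16 could be tested, with 3 higher and 1 lower and a median of 0.09. Ccn2, a matricellular TGF-beta target, rose to 742 ± 288 CPM, against 172 ± 48.4 CPM in the controls (edgeR adjusted p = 0.00216). The antisense gene Gm15270 shares 23.2% of the exonic bases of Ccn2. Mmp2, a gelatinase gene, was at 0.557 ± 0.289 and 0.117 ± 0.118 CPM (edgeR adjusted p = 0.0434, up to 0.119 when 1 library was left out). The fibronectin receptor gene Itga5 fell to 126 ± 15.3 CPM, against 228 ± 27.8 CPM (0.000546), and the mesenchymal cadherin gene Cdh2 averaged 0.137 and 0.167 CPM.

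**Figure D5:**
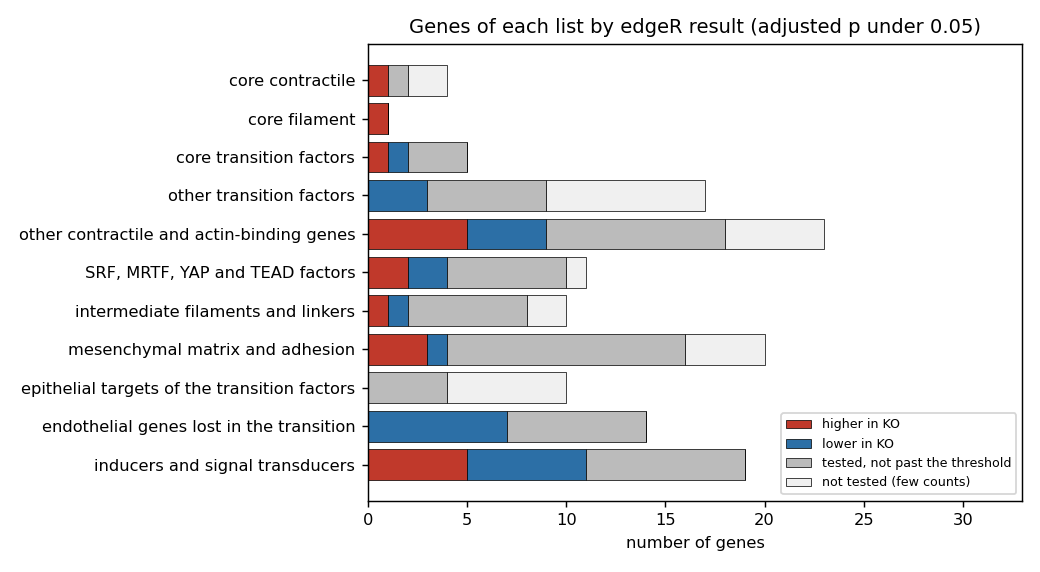
Number of genes in each list that were higher (red) or lower (blue) in the knockout-labelled libraries at an edgeR adjusted p under 0.05, tested without passing (grey) or not tested for few counts (white). The endothelial list holds 7 lower genes and no higher one among 14 tested, and the mesenchymal matrix list 3 higher and 1 lower among 16 tested. Of all genes tested, 14.5% were higher and 14.8% lower.

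Of 10 epithelial genes that the Snail and ZEB factors repress, 4 could be tested and 0 passed in edgeR, DESeq2 or limma-voom, with 0 at an unadjusted edgeR p under 0.05, and Cdh1, the gene of E-cadherin, averaged 0.942 ± 0.344 and 0.590 ± 0.209 CPM. Of 14 endothelial genes lost in the transition, all were tested and 7 were lower, where 14.8% of all genes were, with a median log2 fold change of -0.58. The calls of Tek and Cldn5, both among the 7, ended in 3 and 9 alternatives, at edgeR adjusted p up to 0.0593 and 0.120, and that of Klf4 with no count filter (0.0550). The angiopoietin system receptor gene Tie1 fell to 600.1 ± 57.5 CPM in the knockout-labelled libraries, against 1214 ± 34.1 CPM in the controls (edgeR adjusted p = 1.13e-04). The transcription factor gene Sox18 (log2 -1.37), the nitric oxide synthase gene Nos3 (-1.24) and the junction gene Esam (-0.56) fell as well (edgeR adjusted p = 0.00249, 0.0128 and 0.00293), and Cdh5, Pecam1, Kdr, Vwf, Emcn, Sox17 and Klf2 did not pass. Of 19 inducers and signal transducers, 5 were higher and 6 lower (all genes 14.5% and 14.8%), with a median of 0.02. Among these, the calls of Tgfbr3, Jag1 and Ctnnb1 ended in 8, 8 and 4 alternatives, at edgeR adjusted p up to 0.1345, 0.1034 and 0.1175. The TGF-beta effector gene Smad3 rose to 151 ± 14.04 CPM, against 63.7 ± 9.44 CPM in the controls (edgeR adjusted p = 8.09e-05), and the fibroblast growth factor receptor gene Fgfr1 to 503 ± 87.8 CPM, against 70.9 ± 35.6 CPM (2.98e-04). The type I receptor gene Tgfbr1 fell to 28.5 ± 1.49 CPM, against 41.2 ± 3.68 CPM (9.95e-04), and the inflammatory ligand gene Tnf to 1.04 ± 0.640 CPM, against 10.9 ± 6.62 CPM (0.00198).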

How the data were processed

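The authors deposited raw counts per Ensembl gene for 9 libraries, as whole numbers with 0 columns left unused. STAR 2.7.6a, FastQC 0.11.5 and build GRCm38 are named, per the submitters' processing notes. Not given in the sources used here are the program that counted reads, its strand setting and the annotation release, and per the labels' protocols an unstranded or a stranded TruSeq kit was used. Groups came from titles and columns from descriptions. GENCODE M21 gave symbols, coordinates and exonic lengths for 52489 identifiers. Libraries of a group differed by more than counting error over 16 pairs (20.3 to 182 in chi-square divided by its degrees of freedom), and p-values measure the spread between these libraries, which may be partly technical.

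Counts were filtered with filterByExpr (minimum 10, total 15) and scaled by TMM. The quasi-likelihood test of edgeR 4.0.16 (R 4.3.3, robust, no covariate) was used with adjusted p under 0.05. The SE is the log2 fold change over the square root of F. Alternatives were DESeq2 1.42.0, limma-voom (limma 3.58.1), 3 scalings, 2 filters, a replicate block, and leaving out libraries. The test was checked on simulated counts. Members, lists and alternatives were chosen with earlier results of these data known. Named list genes are the up to 4 called genes with the smallest p in each list, of which 1 is not reported here. Family relatives, Srf, Foxc2, the Id genes other than Id2, Colec11, the collagens and antisense partners were added after values were seen. TPM is computed from the counts and the union of exons. The floor given for Cnn1 covers counting error only, while each SD and SE reflects the spread between libraries.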

Additional observations from a re-analysis of the deposited data

Results flagged for a closer look

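In 74 groups of values, 3 had a single library far from the others, and chance alone flags about 1 group in 20. The groups were the core genes, Erg, Fli1 and the up to 4 called genes with the smallest p in each list of the wider programme, in each set of libraries. Other genes named in the text were not checked, and Cnn1 in the controls, at 0 throughout, could not be flagged. Cnn1 stood at 0.0616 CPM in knockout-labelled replicate 2 and at 0 in the other 4, which rests on 2 counts. Zeb2 stood at 193.5 CPM in control replicate 3, against 161 to 165 CPM in the other controls. Tcf3 stood at 131.1 CPM in control replicate 4, against 118 to 119 CPM in the other controls.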

How the results depend on the processing

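Over all genes, 2110 were higher and 2161 lower, with 1296 and 1375 under the replicate block. Leaving out 1 library gave 1495 to 1981 higher and 1591 to 2040 lower genes, 0 to 3 higher and 1 lower core genes, and 14 to 20 higher and 16 to 23 lower list genes. Of the core genes, 1 was higher with limma-voom and 4 with DESeq2, and 2 with no count filter, with at least 5 CPM in 4 samples or without knockout-labelled replicates 2 and 3. In turn, these pairs were Myl9 and Vim, Vim and Twist1, and Twist1 and Snai1. The sign turned for Tagln with limma-voom (-0.17) and without knockout-labelled replicates 2 and 3 (-0.47), and for Zeb1 under the replicate block (-0.00836), none of them called. The Fli1 log2 fold change was 0.50 under the block (edgeR adjusted p = 0.0640) and 0.50 to 0.62 when 1 library was left out, and that of Erg was -1.16 to -1.09. The causes were not tested. Same-numbered libraries of both groups correlated at 0.29, -0.03, -0.02 and -0.33 in their deviations from the group means, so the numbers were not taken to pair samples. No core gene lost or gained its call under the block. Cnn1 had 2 counts in all, and Acta2 and Tagln had low counts that varied widely between the knockout-labelled libraries.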
